A study of Mus musculus with 155 samples.

Results

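KH2 mouse embryonic stem cells (ESCs) carrying a doxycycline (Dox)-inducible H3.3 with lysine 27 replaced by methionine (H3.3K27M) were compared with the same parental cells carrying H3.3 with leucine at that position (H3.3K27L). Members were chosen by the column labels of the ESC gene count table, which gave 8 H3.3K27M libraries (2 replicates at 4, 8, 24 and 72 h of Dox) and 7 H3.3K27L libraries, 15 of the 155 samples of the series. The left-out H3.3K27L library, replicate 2 at 72 h, held 68378 counts. The 8 WT-H3.3 libraries of the same times, from KH2 cells with inducible wild-type H3.3, were used as a reference for levels. In all 3 lines the extra H3.3 copy was tagged with SNAP and HA, was added to the cells' own H3.3 genes, and was introduced into KH2 cells by recombination and hygromycin selection of colonies. A difference between lines and one between the colonies they grew from cannot be told apart. The ESCs were kept on gelatin in medium with serum, leukemia inhibitory factor and inhibitors of MEK and GSK3, and Dox was added to every library compared here.

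H3.3 is the replication-independent histone H3 that marks active and newly remodelled chromatin. Methylation of its lysine 27 is written by Polycomb repressive complex 2 (PRC2) and holds developmental genes silent. The methionine mutant is known to inhibit PRC2 in a dominant-negative way, whereas the leucine mutant removes the same lysine without that inhibition. The comparison sets a line with an inhibitory loss of this residue beside one with a non-inhibitory loss, and does not isolate PRC2 inhibition. ESCs in these inhibitors resemble the naive inner cell mass, with little DNA methylation at germline promoters and with imprinted genes normally expressed from 1 parental allele.

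Total counts ran from 6590661 to 11949871 in H3.3K27M and from 6336754 to 21161392 in the 7 H3.3K27L libraries. The summed level of 8 ESC markers was 4749 to 6168 CPM (counts scaled to a common library size) in H3.3K27M and 5883 to 6925 CPM in H3.3K27L cells, and the 12 fibroblast markers summed to 53.5 to 112 and 53.1 to 148 CPM. In the trophoblast list, 1 of 10 markers, Tpbpa, had 0 counts in all 15 libraries. Some stretches of the genome stood apart in H3.3K27L cells. Relative to the WT-H3.3 libraries, the median gene of chromosome 8 lay at a log2 level of -0.50 in the 3 replicate 2 libraries. From karyotyping, the study reported a potential duplication of this chromosome in all its clones and left the chromosome out. The WT-H3.3 level there may therefore not be that of a normal copy number, and copy number was not tested. Against the same libraries, the median gene of chromosome 14 lay at 0.52 to 0.56 in the 4 replicate 1 libraries, and chromosome Y genes were at -6.70 to -3.15. In H3.3K27M cells the corresponding ranges were -0.04 to 0.03, -0.04 to 0.05 and -0.33 to 0.20. Genes of these 3 chromosomes were set aside, and 2 further stretches, on chromosomes 6 and 17, are given beside each gene that lies in them. In bulk libraries, fewer cells expressing a gene and less RNA per cell cannot be told apart.

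Of 12338 genes tested with Dox time as a factor, 404 (3.27%) were called different between the lines, with thresholds of 0.05 on the adjusted p and of 2-fold on the change in either direction. In H3.3K27M cells 285 genes (2.31%) were higher, with a median log2 fold change of 1.40, and in H3.3K27L cells 119 genes (0.964%) were higher, with a median difference of 1.29. The median log2 fold change of all tested genes was -0.000485. Without a fold threshold 1148 genes (9.30%) had an adjusted p under 0.05, 632 of them higher in H3.3K27M. The libraries of both lines did not overlap at 267 genes (2.16%), with H3.3K27M above at 162 (1.31%) and below at 105 (0.851%). These included 76 of the 285 and 38 of the 119 called genes. Against WT-H3.3, in an edgeR model of 23 libraries over all Dox times, 424 of 12579 genes (3.37%) were called for H3.3K27L and 0 for H3.3K27M. For H3.3K27M 1687 genes had an unadjusted p under 0.05 in that model, and the lowest adjusted p was 0.0669. Within a line, libraries of 1 replicate number deviated together at 4, 8 and 24 h (correlation across genes of 0.498 to 0.730), so the p-values measure the spread between libraries that are not all independent. With the libraries summed to 1 value per line and replicate number, 2 sums against 2, edgeR called 0 genes and 910 had an unadjusted p under 0.05.

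**Figure D1:**
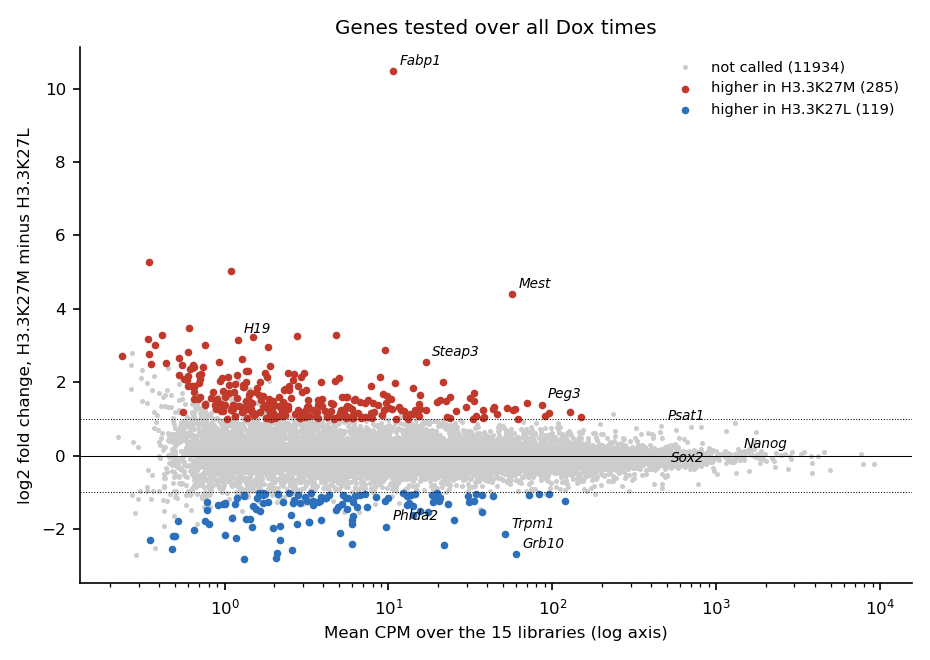
Mean CPM over the 15 libraries (log axis) against the log2 fold change of H3.3K27M minus H3.3K27L for the 12338 genes tested, with called genes in colour and dotted lines at a fold change of 2. Mest, Peg3 and Steap3 lie above and Grb10 and Trpm1 below, while Nanog and Sox2 lie close to 0.

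Taken singly, the 4 times gave few calls. With 1 or 2 libraries per line, 0 genes were called at 4, 24 and 72 h, where 741, 755 and 298 genes had an unadjusted p under 0.05. At 8 h 3 genes (0.0243%) were called, and 0 without any one of the 4 libraries of that time. These were Tuba3a and Wfdc2, higher in H3.3K27M with log2 fold changes of 2.33 and 1.49, and Trpm1, lower by 2.64 on the log2 scale. Wfdc2, which encodes a secreted protease-inhibitor-like protein, was named after its values were seen. DESeq2 called 42, 58, 35 and 3 genes at 4, 8, 24 and 72 h. The 404 genes called over all times had the same direction in 402 at 4 h, in 404 at 8 h, in 404 at 24 h and in 376 at 72 h, from the same libraries that chose them. Their median log2 fold change was 1.60, 1.55, 1.49 and 0.99 for the genes higher in H3.3K27M and -1.38, -1.56, -1.32 and -1.07 for the others. A change of the line difference between early (4 and 8 h) and late (24 and 72 h) times was called for 0 genes, with 118 at an unadjusted p under 0.05 in edgeR and 0 calls in DESeq2. The line by time interaction was called for 0 genes, and 57 of the 12338 tested had an unadjusted p under 0.05.

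The genes with the lowest adjusted p among those with non-overlapping libraries had varied roles. Steap3, a ferrireductase of iron uptake, lay at 20.2 to 42.2 CPM (median 25.8) in H3.3K27M, at 1.80 to 7.47 CPM (median 4.61) in H3.3K27L and at 6.59 to 32.4 CPM in WT-H3.3 libraries. Its log2 fold change between the mutants was 2.55 (SE 0.23, adjusted p = 2.32e-05). Tes, a focal adhesion protein, had 46.5 to 89.2 CPM against 23.8 to 39.0 CPM (log2 fold change 1.31), and Suclg2, a subunit of succinyl-CoA ligase, 64.6 to 109 against 32.0 to 56.5 CPM (log2 fold change 1.01). For all 3 genes every H3.3K27M library was above every H3.3K27L library. Smoc1, a secreted calcium-binding protein, was at 44.2 to 54.1 CPM in H3.3K27M and 45.1 to 60.3 CPM in WT-H3.3, against 20.8 to 29.0 CPM in H3.3K27L cells. Gyg, which primes glycogen synthesis, Pdpn, a membrane glycoprotein, and Cpne9, a copine, differed by 1.30, 1.32 and 2.07 on the log2 scale.

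Among genes higher in H3.3K27L cells, Ptrf, a structural protein of caveolae, lay at 29.3 to 55.7 CPM in H3.3K27M, 82.5 to 116 CPM in H3.3K27L and 45.6 to 72.1 CPM in WT-H3.3 libraries (log2 fold change -1.06, SE 0.09, adjusted p = 2.32e-05). Pros1, the anticoagulant protein S, was at 8.44 to 21.2 CPM in H3.3K27M and 26.1 to 49.3 CPM in H3.3K27L (log2 fold change -1.76). Trpm1, a cation channel, was at 10.9 to 28.8 CPM against 40.2 to 142 CPM (log2 fold change -2.13). Neither gene had overlapping libraries between the mutants, and the WT-H3.3 ranges, 10.9 to 32.9 and 12.5 to 54.3 CPM, reached into those of both lines. Dbn1, an actin-binding protein, Celsr3, an atypical cadherin, and Rbm47, an RNA-binding protein, had log2 fold changes of -1.40, -1.11 and -1.08. Unnamed loci in this set were Gm13151 (-1.05), Gm4934 (-2.77) and D18Ertd653e (-1.97 on the log2 scale).

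Imprinted genes, which are expressed from 1 parental allele and many of which are controlled by allele-specific DNA methylation, were called in both directions. Of the 32 members tested, 12 were called (37.5%, against 3.27% of all genes), 8 higher in H3.3K27M and 4 higher in H3.3K27L, and 20 were not. The median log2 fold change of the list was 0.22. Mest, a paternally expressed hydrolase gene (chromosome 6, 30673547 to 30698457 of NCBIM37), was at 72.8 to 128 CPM (median 102) in H3.3K27M and 97.8 to 142 CPM in WT-H3.3 libraries. In H3.3K27L it was at 6.88 to 9.01 CPM in the 4 replicate 1 libraries and at 0.288 to 0.772 CPM in the 3 replicate 2 libraries. The log2 difference between the mutants was 4.41 (SE 0.51, adjusted p = 0.000121), with no overlap at any time. Peg3, a paternally expressed zinc finger gene, was at 85.0 to 154 CPM in H3.3K27M, 93.4 to 146 CPM in WT-H3.3 and 44.1 to 48.1 CPM in H3.3K27L cells (log2 fold change 1.39, SE 0.13, adjusted p = 2.32e-05). H19, a maternally expressed non-coding RNA, was at 1.30 to 2.62 CPM against 0.0871 to 0.589 CPM (log2 fold change 3.16).

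In the other direction, Grb10 (chromosome 11, 11830511 to 11938686), which encodes an adaptor that dampens insulin signalling, was at 9.10 to 28.0 CPM in H3.3K27M and 9.99 to 17.4 CPM in WT-H3.3 libraries. It reached 139 to 174 CPM in replicate 1 and 44.3 to 53.04 CPM in replicate 2 of H3.3K27L (log2 fold change -2.68, SE 0.35, adjusted p = 0.000377). The H3.3K27L replicates thus stood apart at Mest and Grb10, and both lay on the same side of all H3.3K27M libraries. Phlda2, a growth-restraining placental gene, lay at 2.54 to 7.36 CPM in H3.3K27M and 11.6 to 22.4 CPM in H3.3K27L (log2 fold change -1.93, SE 0.17). Slc22a18, an organic cation transporter, and Cdkn1c, a cyclin-dependent kinase inhibitor, belong to the same maternally expressed cluster of distal chromosome 7 as Phlda2 and had log2 fold changes of -2.81 and -1.27. Further genes higher in H3.3K27M were Usp29 (1.38), which neighbours Peg3, Dlk1 (1.88), a Notch-ligand-like membrane protein, Sgce (1.21), Sfmbt2 (1.28), a Polycomb-group gene, and Nespas (1.02). Slc22a18, Usp29, Dlk1, Sgce and Nespas were named after their values were seen. Against WT-H3.3 in a model of 23 libraries, the log2 differences of H3.3K27L were -4.60 for Mest, -1.34 for Peg3, -2.94 for H19, 3.08 for Grb10 and 1.24 for Phlda2, all 5 called, as were 3.37% of the 12579 genes of that model. Those of H3.3K27M for the same genes were -0.20, 0.04, 0.20, 0.40 and -0.70, and 0 genes of the model were called for that line, with 1687 at an unadjusted p under 0.05. With the H3.3K27L replicate 1 libraries as the only ones of their line, 9 and 4 imprinted genes were called higher and lower in H3.3K27M, and with the replicate 2 libraries 5 and 4.

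**Figure D2:**
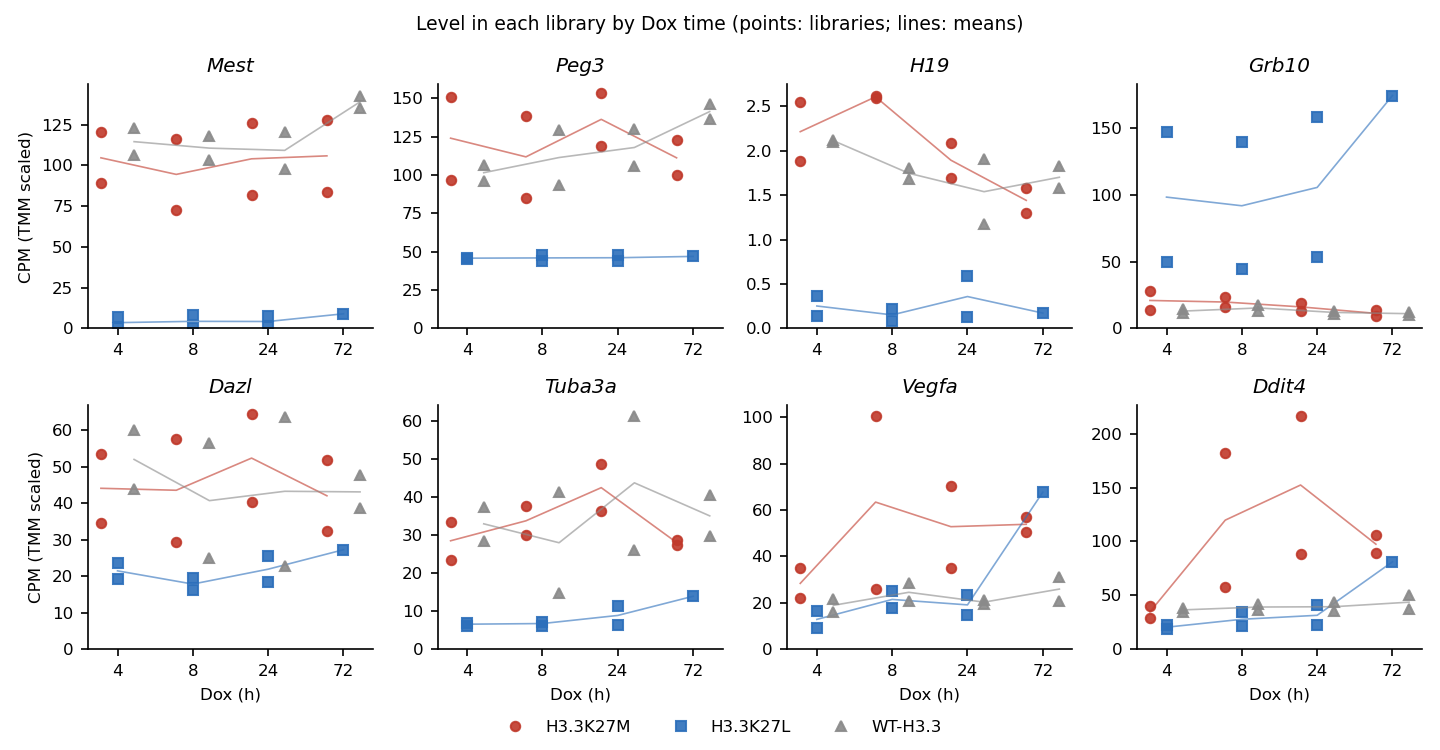
CPM of 8 genes in each library by Dox time (h), for H3.3K27M (8 libraries), H3.3K27L (7) and WT-H3.3 (8), with lines through the means. H3.3K27L libraries sit below those of H3.3K27M at Mest, Peg3, H19, Dazl and Tuba3a and above at Grb10, and at Vegfa and Ddit4 the H3.3K27L library of 72 h reaches 67.8 and 81.1 CPM.

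Germline genes, which in mouse somatic cells are silenced by DNA methylation of CpG-containing promoters and by the E2F6 and PRC1.6 repressors, were called in one direction. Of 20 tested, 5 were higher in H3.3K27M (25.0%, against 2.31% of all genes), 0 were lower, and the list median was 0.70 on the log2 scale. Tuba3a, a testis tubulin (chromosome 6, 125228292 to 125236060), lay at 23.4 to 48.5 CPM (median 31.7) in H3.3K27M, 14.7 to 61.3 CPM in WT-H3.3 and 6.18 to 13.9 CPM (median 6.88) in H3.3K27L libraries (log2 fold change 2.01, SE 0.19, adjusted p = 2.32e-05). It lies in the stretch of chromosome 6 described below. Dazl, an RNA-binding regulator of germ cells (chromosome 17, 50418719 to 50432924), was at 29.3 to 64.4 CPM in H3.3K27M, 22.9 to 63.6 CPM in WT-H3.3 and 16.2 to 27.2 CPM in H3.3K27L (log2 fold change 1.09, SE 0.19, adjusted p = 0.00226). At both genes every H3.3K27M library was above every H3.3K27L library, while some WT-H3.3 libraries fell within the H3.3K27L range of Dazl. Sohlh2, a germ cell transcription factor, Smc1b, a meiotic cohesin subunit, and Asz1, a piRNA pathway component named after its values were seen, had log2 fold changes of 1.52, 2.25 and 2.83, and the libraries of the mutants overlapped at each. Asz1 was at 0 to 0.362 CPM in H3.3K27L, and at that level it can have passed the filter on low counts through H3.3K27M libraries alone. The list gave 6 calls with either the replicate 1 or the replicate 2 libraries of H3.3K27L alone, and 0 in the other direction.

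Promoters of germline and imprinted genes called here are shown for the CpG dinucleotides, at which many such genes can be methylated. They are RefSeq sequences of GRCm38.p6, from 250 bases before to 50 after a start site, read on the gene's strand, with each CG in capitals, and where a gene has several start sites the one with most CG was taken. The median promoter of 32851 in this table holds 7 CG, and those printed hold 28 (Dazl, chr17:50293571-50293870, minus strand), 12 (Tuba3a, chr6:125286032-125286331, minus strand), 17 (Mest, chr6:30737800-30738099, plus strand) and 13 (Peg3, chr7:6730370-6730669, minus strand). Promoters were available for 5 of the 5 called germline genes and 8 of the 12 called imprinted genes. Those not printed held from 2 CG (Slc22a18) to 45 (Grb10). Methylation was not measured in these libraries.
Dazl: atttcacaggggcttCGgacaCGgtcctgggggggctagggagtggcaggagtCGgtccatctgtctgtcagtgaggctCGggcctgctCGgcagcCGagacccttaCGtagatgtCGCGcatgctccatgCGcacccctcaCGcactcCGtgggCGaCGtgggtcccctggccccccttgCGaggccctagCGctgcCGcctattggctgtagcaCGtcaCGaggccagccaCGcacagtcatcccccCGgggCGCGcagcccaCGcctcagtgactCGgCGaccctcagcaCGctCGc
Tuba3a: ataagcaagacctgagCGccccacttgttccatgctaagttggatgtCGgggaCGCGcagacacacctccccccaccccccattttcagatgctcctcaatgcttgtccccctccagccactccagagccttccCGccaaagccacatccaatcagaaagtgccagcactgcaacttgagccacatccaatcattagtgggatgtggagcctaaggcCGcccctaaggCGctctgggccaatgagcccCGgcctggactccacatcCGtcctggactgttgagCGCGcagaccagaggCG
Mest: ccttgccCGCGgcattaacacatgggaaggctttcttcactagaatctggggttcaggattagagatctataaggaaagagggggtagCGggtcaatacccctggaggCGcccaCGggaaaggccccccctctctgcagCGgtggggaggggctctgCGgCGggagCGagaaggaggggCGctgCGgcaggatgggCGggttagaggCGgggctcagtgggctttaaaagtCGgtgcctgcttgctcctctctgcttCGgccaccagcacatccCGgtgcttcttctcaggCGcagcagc
Peg3: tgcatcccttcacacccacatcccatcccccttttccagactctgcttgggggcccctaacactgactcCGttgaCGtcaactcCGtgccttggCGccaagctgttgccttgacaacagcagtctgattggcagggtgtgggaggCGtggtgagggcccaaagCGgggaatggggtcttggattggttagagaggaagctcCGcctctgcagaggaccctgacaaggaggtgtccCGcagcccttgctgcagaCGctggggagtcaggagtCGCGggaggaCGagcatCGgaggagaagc

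On chromosome X, 30 of 522 tested genes (5.75%, against 2.31% of all genes) were higher in H3.3K27M and 3 (0.575%, against 0.964%) were lower, and the median X gene lay at 0.01 on the log2 scale. The locus 1700013H16Rik was at 3.42 to 15.6 CPM in H3.3K27M, 1.40 to 25.6 CPM in WT-H3.3 and 0 to 1.56 CPM in H3.3K27L cells (log2 fold change 3.29, SE 0.34, adjusted p = 4.89e-05). Several of the X genes are known from testis or from the reproductive homeobox cluster, and those named here were chosen after their values were seen. How many of the 30 are of this kind was not counted. The germline list above also holds Rhox5, Rhox6, Rhox9, Taf7l, Tex11 and Tktl1, and none of these was among its called genes. Usp26, a testis deubiquitinase, was at 4.07 to 11.2 against 1.09 to 3.64 CPM (log2 fold change 2.03), and Fmr1nb, a cancer-testis antigen, at 24.9 to 39.8 against 5.02 to 18.9 CPM (log2 fold change 1.60). The libraries of the mutants did not overlap at either. Xlr3a (3.27), Rhox1 (1.94) and Rhox13 (2.004 on the log2 scale) had overlapping libraries. Magea4 was at 0.0925 to 5.36 CPM in H3.3K27M and at most 0.109 CPM in H3.3K27L. Genes this low in H3.3K27L can have passed the filter on low counts through H3.3K27M alone. The shares of chromosome X hold only for genes that passed. Without chromosome X, 371 genes were called, 255 of them higher in H3.3K27M.

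The hypoxia list holds targets of the HIF transcription factors, which act on oxygen-sensing, glycolytic and angiogenic genes. Of 43 genes tested, 5 were higher in H3.3K27M (11.6%, against 2.31% of all genes), 0 were lower, and the list median was 0.31 on the log2 scale. Members such as Vegfa, Ddit4, Bhlhe40 and Ier3 were named by the study as raised in H3.3K27M from these same data. The share and median of the list are therefore not independent of these libraries. Anxa2, a membrane-binding annexin (chromosome 9, 69301427 to 69339602), was at 16.3 to 38.4 CPM in H3.3K27M, 13.2 to 31.4 CPM in WT-H3.3 and 6.33 to 14.2 CPM in H3.3K27L, with no overlap between the mutants (log2 fold change 1.46, SE 0.16, adjusted p = 7.15e-05). Ndufa4l2, a mitochondrial protein induced by hypoxia (chromosome 10, 126951995 to 126954208), was at 6.99 to 17.9 CPM in H3.3K27M, 1.63 to 8.80 CPM in H3.3K27L and 3.08 to 9.89 CPM in WT-H3.3 libraries (log2 fold change 1.38, SE 0.22). Ddit4, an inhibitor of mTOR signalling (chromosome 10, 59412423 to 59414518), spread from 29.2 to 217 CPM (median 88.5) in H3.3K27M and from 18.5 to 81.1 CPM (median 22.2) in H3.3K27L, against 34.8 to 50.3 CPM in WT-H3.3 (log2 fold change 1.45, SE 0.33, adjusted p = 0.0142). At 4, 8, 24 and 72 h its log2 difference was 0.77, 2.12, 2.28 and 0.27. The list gave 3 calls with the H3.3K27L replicate 2 libraries alone, and also 3 without any one of 5 libraries (H3.3K27M replicate 1 of 4 or 24 h, H3.3K27L replicate 2 of 4 or 24 h and replicate 1 of 8 h).

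Vegfa, the main angiogenic growth factor (chromosome 17, 46153942 to 46169326), was at 21.9 to 101 CPM (median 42.9) in H3.3K27M, 9.23 to 67.8 CPM (median 17.6) in H3.3K27L and 16.2 to 31.2 CPM in WT-H3.3 libraries. Its log2 fold change of 1.05 (SE 0.31, adjusted p = 0.0475) was close to both thresholds, and it was called in 15 of the 34 other settings tried. By time it was 1.13, 1.57 and 1.47 at 4, 8 and 24 h and -0.33 at 72 h, where the single H3.3K27L library was at 67.8 CPM and both H3.3K27M libraries lay below it. Vegfa lies in a stretch of chromosome 17 whose median gene was at 0.66 to 0.77 on the log2 scale against WT-H3.3 in the H3.3K27L replicate 2 libraries, and the part of this in its value was not tested. Of the other genes of interest to the study, A2m, a protease inhibitor, was higher in H3.3K27M (29.6 to 67.5 against 10.1 to 27.9 CPM, log2 fold change 1.48, SE 0.17, adjusted p = 0.000102) and lies in the chromosome 6 stretch. Grin1, the obligate NMDA receptor subunit, had 2.29 to 7.80 against 0 to 3.22 CPM (log2 fold change 1.39, SE 0.35, adjusted p = 0.021). Ier3, an immediate early gene (1.08), Bhlhe40, a clock-linked repressor (0.78), Egln3, a HIF prolyl hydroxylase (0.32), and Pgm1, a phosphoglucomutase (0.25 on the log2 scale), were not called, with adjusted p of 0.0862, 0.107, 0.472 and 0.0876. Against WT-H3.3 the H3.3K27M differences were 1.22 for Ddit4, 1.11 for Vegfa, 1.13 for Ndufa4l2, 0.31 for Anxa2 and 0.79 for A2m, and those of H3.3K27L were -0.28, 0.08, -0.24, -1.14 and -0.70. Of these 10 differences, that of Anxa2 in H3.3K27L was called.

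Promoters were available for 3 of the 5 called hypoxia genes, and the core of the hypoxia response element, ACGTG or GCGTG on either strand, was found in all 3, for Vegfa at 1 of its 2 start sites. Of all 32851 promoters, 43.8% hold it. The windows of Anxa2 (chr9:69453433-69453732, plus strand) and Ddit4 (chr10:59951721-59952020, minus strand) are printed with these letters in capitals.
Anxa2: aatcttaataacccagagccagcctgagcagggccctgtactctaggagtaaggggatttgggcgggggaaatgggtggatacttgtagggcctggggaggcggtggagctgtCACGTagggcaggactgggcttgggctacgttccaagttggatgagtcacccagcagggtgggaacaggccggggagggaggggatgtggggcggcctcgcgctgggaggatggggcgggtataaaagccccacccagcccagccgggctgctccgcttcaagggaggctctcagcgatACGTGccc
Ddit4: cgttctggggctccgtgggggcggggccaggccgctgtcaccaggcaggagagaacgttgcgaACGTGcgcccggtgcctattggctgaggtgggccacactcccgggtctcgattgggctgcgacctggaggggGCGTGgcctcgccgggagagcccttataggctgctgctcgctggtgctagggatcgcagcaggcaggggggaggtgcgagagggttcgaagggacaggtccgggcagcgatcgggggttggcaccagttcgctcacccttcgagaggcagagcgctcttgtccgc

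Genes of the unfolded protein and integrated stress response differed by less than the fold threshold. Of 27 tested, 0 were called and 8 had an adjusted p under 0.05, all 8 higher in H3.3K27M (29.6%, against 5.12% of all genes), with a list median of 0.35 on the log2 scale. Psat1, an enzyme of serine synthesis, was at 429 to 752 CPM (median 590) in H3.3K27M and 253 to 577 CPM (median 284) in H3.3K27L (log2 fold change 0.81, SE 0.17, adjusted p = 0.00867). The highest H3.3K27L value, 577 CPM, was that of 72 h, and the log2 difference was 1.06, 1.06, 0.93 and -0.05 at the 4 times. Phgdh, an enzyme of the same pathway (0.75), Slc3a2, an amino acid transporter subunit (0.40), and the transcription factor Cebpb (0.80) differed in the same direction at adjusted p of 0.00334, 0.0141 and 0.021.

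The lists of H3.3 genes and chaperones, PRC1 and PRC2 subunits and H3K27 enzymes held 1 called gene. The endogenous H3.3 genes H3f3a (73.4 to 148 against 102 to 161 CPM) and H3f3b (469 to 841 against 552 to 680 CPM) had log2 fold changes of -0.07 and -0.04, and the tagged copy was not told apart from them in these counts. None of 12 H3.3 and chaperone genes, 19 PRC1 subunits and 10 H3K27 enzymes was called, with medians of -0.06, -0.09 and -0.09, and under no fold threshold 1 member of each had an adjusted p under 0.05. Pcgf2, a PRC1 subunit, and Sirt1, a deacetylase, were lower by 0.34 and 0.53 on the log2 scale in H3.3K27M at adjusted p of 0.0234 and 0.0391. Of 14 PRC2 subunits and cofactors, 1 was called (7.14%, against 3.27% of all genes). It was AU022751, the locus of the PRC2 inhibitor Ezhip on chromosome X, at 1.30 to 3.90 CPM in H3.3K27M, 1.27 to 4.72 CPM in WT-H3.3 and 0.173 to 1.29 CPM in H3.3K27L libraries (log2 fold change 1.62, SE 0.34, adjusted p = 0.00836). Among 14 DNA methylation and TET genes 0 were called. The de novo methyltransferase Dnmt3a was at 64.0 to 121 against 36.7 to 70.4 CPM (log2 fold change 0.71, adjusted p = 0.00686). Zfp57, the zinc finger protein that protects imprints, was at 198 to 494 against 462 to 822 CPM (-0.76, adjusted p = 0.0114), and Tet2, a dioxygenase of 5-methylcytosine, differed by -0.97 at an adjusted p of 0.0493. It was at 412 to 667 CPM in replicate 1 and 141 to 229 CPM in replicate 2 of H3.3K27L, against 141 to 344 CPM in H3.3K27M, and with replicate 2 alone its log2 fold change was 0.08.

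Developmental transcription factors known as PRC2 targets in ESCs gave 4 calls. Of 27 tested, 6 had a positive log2 fold change, 3 were called lower (11.1%, against 0.964% of all genes) and 1 higher, and the median was -0.43 on the log2 scale. Cdx2, a trophoblast and posterior regulator, was at 0 to 2.21 CPM (median 0.827) in H3.3K27M, 1.04 to 7.08 CPM (median 3.68) in H3.3K27L and 1.71 to 3.92 CPM in WT-H3.3 libraries (log2 fold change -1.91, SE 0.51, adjusted p = 0.0287). Meis1, a Hox cofactor, was at 0.238 to 0.982 CPM against 1.31 to 2.79 CPM, with no overlap (log2 fold change -1.71, SE 0.33). Of the 63 members counted, 7 were on chromosomes set aside and 27 passed the filter on low counts. A gene as low as Meis1 can pass it through H3.3K27L alone, so the share and median hold only for genes that passed. Gbx2, a homeobox gene also used as a naive marker, was at 6.48 to 18.1 CPM in H3.3K27M, at 15.1 to 21.8 CPM in replicate 1 and at 42.8 to 45.6 CPM in replicate 2 of H3.3K27L (log2 fold change -1.24). With the replicate 1 libraries alone its log2 fold change was -0.64 and it was not called. The calls lower in H3.3K27M were 5 without H3.3K27M replicate 1 of 4, 8 or 24 h or without H3.3K27L replicate 1 of 72 h, and 1 without H3.3K27L replicate 2 of 4 h.

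Hox genes, the clustered PRC2 targets of axial patterning, were called in the other direction. Of 18 tested, 3 were higher in H3.3K27M (16.7%, against 2.31% of all genes), 0 were lower, and the median was 0.70 on the log2 scale, at levels of a few CPM. Hoxd8 was at 0.513 to 4.05 CPM in H3.3K27M, 0.144 to 0.543 CPM in H3.3K27L and 2.79 to 4.96 CPM in WT-H3.3 (log2 fold change 2.64, SE 0.45, adjusted p = 0.00227). Hoxd1 (2.52) and Hoxc5 (1.86 on the log2 scale) lay at or under 2 CPM in every library of both mutants. In H3.3K27L they reached at most 0.347 and 0.576 CPM. Of the 38 Hox genes counted, 18 passed the filter on low counts. A gene this low can pass it through the line where it is higher alone, so the share and median hold only for genes that passed. The libraries overlapped at all 3. Among genes that reached 10 counts in each of the libraries, 0 Hox genes were called. Hoxd8, Hoxd1 and Hoxc5 did not reach that level and were not tested there, so this setting cannot show whether their calls hold. Leaving out 1 library gave 2 to 4 Hox calls.

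**Figure D3:**
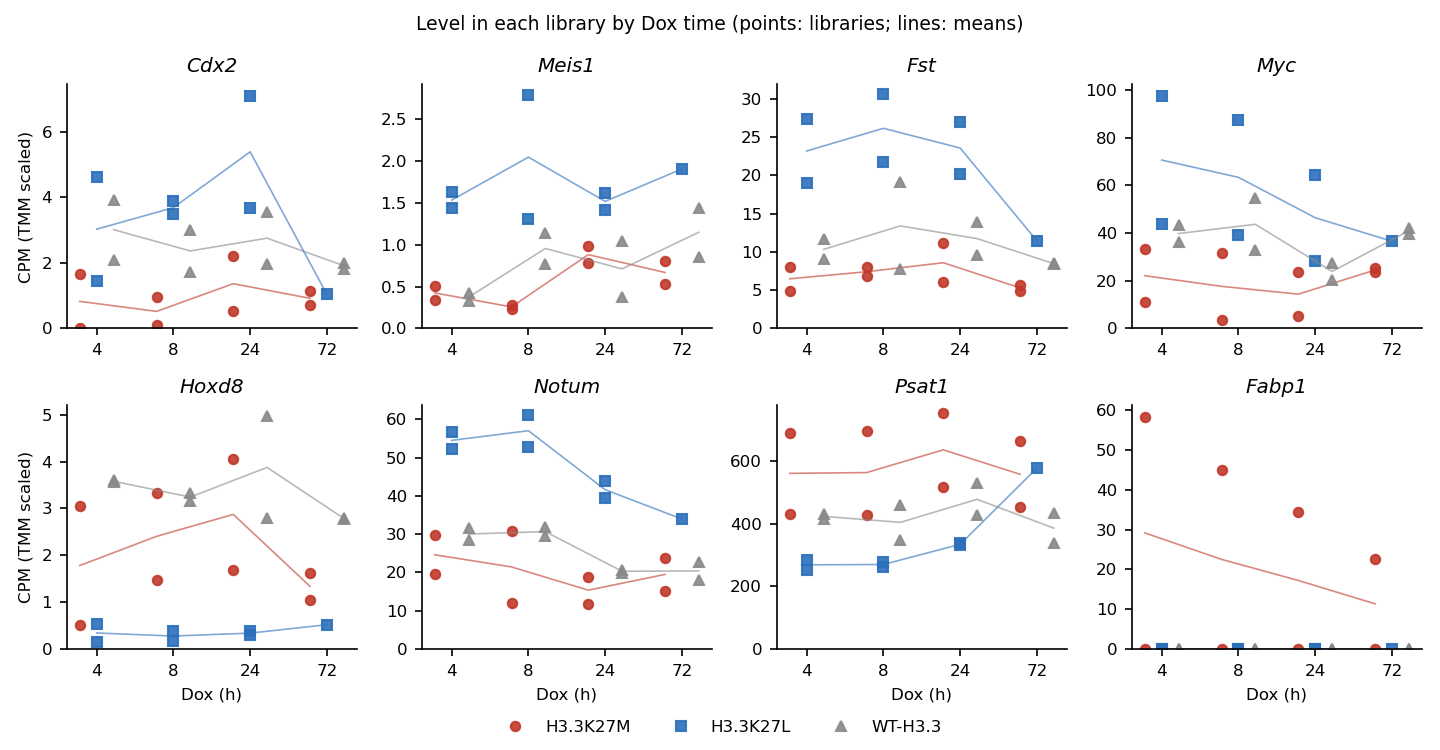
CPM of 8 genes in each library by Dox time (h), for H3.3K27M (8 libraries), H3.3K27L (7) and WT-H3.3 (8), with lines through the means. H3.3K27L lies above H3.3K27M at Meis1, Fst, Myc and Notum, Hoxd8 has a lower mean in H3.3K27L at each time, Psat1 is lowest in H3.3K27L at 4 to 24 h, and Fabp1 is detected in 4 of the 8 H3.3K27M libraries.

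Targets of Wnt, Nodal and BMP signalling were called mainly higher in H3.3K27L. Of 24 tested, 4 were lower in H3.3K27M (16.7%, against 0.964% of all genes) and 1 was higher, with a median of -0.54 on the log2 scale. Fst, the activin antagonist follistatin, was at 4.92 to 11.2 CPM (median 6.43) in H3.3K27M, 11.4 to 30.6 CPM (median 21.7) in H3.3K27L and 7.70 to 19.1 CPM in WT-H3.3 (log2 fold change -1.60, SE 0.18, adjusted p = 0.000101). Notum, a secreted Wnt inhibitor, was at 11.9 to 30.8 against 34.0 to 61.2 CPM (log2 fold change -1.24, SE 0.19). No library of one line reached the range of the other at Fst or Notum. Id4, a BMP-induced inhibitor of helix-loop-helix factors, and Sp5, a Wnt-induced factor named after its values were seen, had log2 fold changes of -1.16 and -1.32, and 0.27 and 0.01 at 72 h. With the H3.3K27L replicate 2 libraries alone 6 members of the list were called lower in H3.3K27M, and with those of replicate 1 alone 4.

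Of the pluripotency genes, 3 of 17 in the naive list (17.6%, against 3.27% of all genes) and 1 of 19 in the general and primed list (5.26%) were called. The list medians were -0.24 and -0.17 on the log2 scale. Log2 fold changes were positive for 6 of the 17 and 5 of the 19, against 6164 of all 12338 genes. Nanog was at 1034 to 1710 CPM against 1028 to 1542 CPM (log2 fold change 0.04). It lies in the chromosome 6 stretch, but in the gap between its shifted runs, from Bms1 to Rimklb and from Cops7a to Cmas. The median gene of the whole stretch was 0.49 higher in H3.3K27M on the log2 scale. Sox2 was at 381 to 572 against 520 to 569 CPM (-0.35, adjusted p = 0.0144), which is under the fold threshold. Of the naive genes, Dppa3, a maternal factor that limits methylation, was higher in H3.3K27M (18.4 to 40.8 against 3.66 to 26.9 CPM, log2 fold change 1.49) and 2 were lower, among them Gbx2. Dppa3 lies in the same gap of the stretch as Nanog. The general and primed gene called was Fst. Among lineage markers, 3 of 13 trophoblast genes (23.1%, against 3.27% of all genes) were called, Sfmbt2 and Esx1 (1.35) higher and Cdx2 lower, and 1 of 9 extraembryonic endoderm genes (11.1%), the adaptor Dab2, was higher at 0.740 to 8.34 against 0.173 to 1.16 CPM (log2 fold change 2.13). Of 18 neural genes 2 were called (11.1%), of which Grin1 was higher and Stmn3, a microtubule destabilizer, lower by 1.76 on the log2 scale. None of the 15 fibroblast and matrix genes and of the 6 two-cell-stage genes was called, and Col5a2 and Dub1a, with the lowest adjusted p, had 0.0752 each. All 6 two-cell-stage genes had positive log2 fold changes (median 0.93), with Zscan4c at 1.39 to 5.85 against 0.523 to 3.12 CPM and at 2.22 to 8.99 CPM in WT-H3.3.

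**Figure D4:**
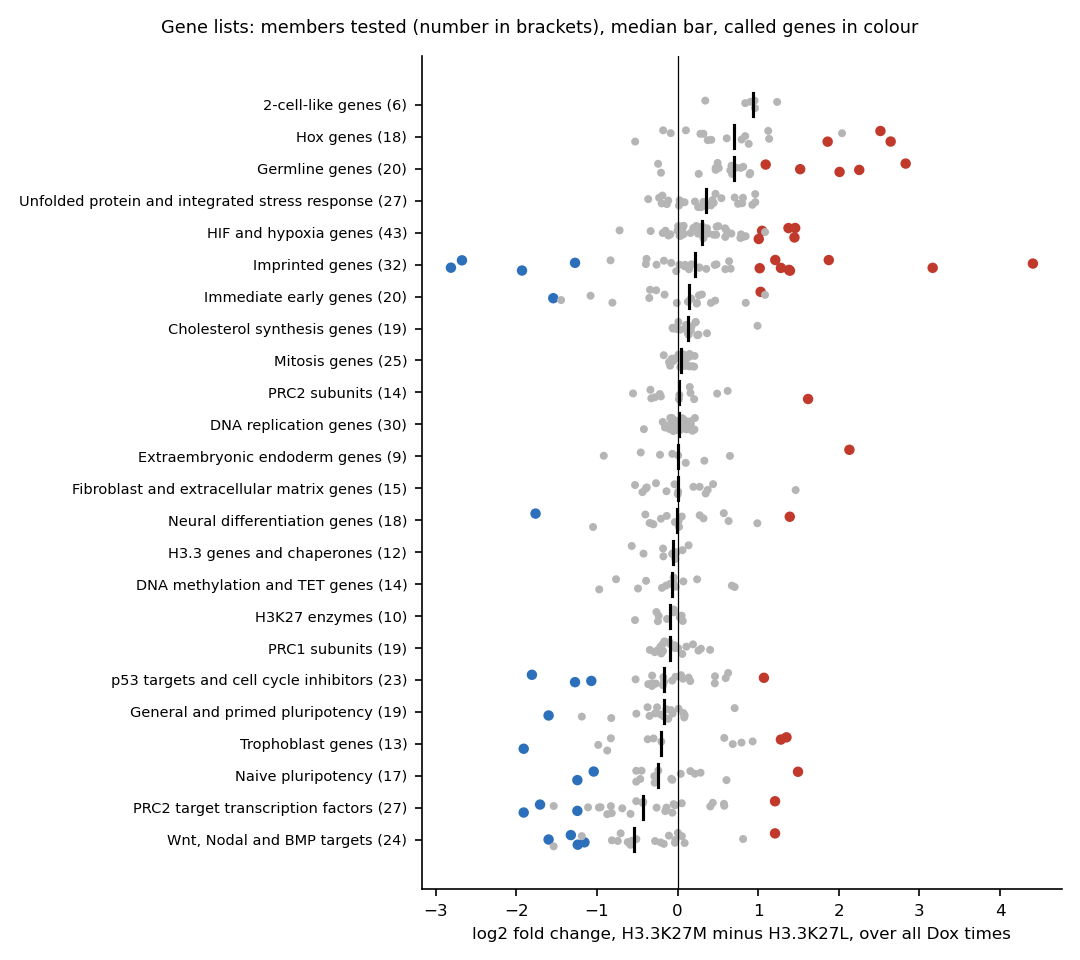
Log2 fold change of H3.3K27M minus H3.3K27L for the tested members of 24 gene lists, with a bar at each median and called genes in colour. Germline and Hox genes lie to the right (medians 0.70 each), Wnt, Nodal and BMP targets to the left (-0.54), and imprinted genes spread from -2.81 to 4.41.

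Cell cycle regulators moved both ways. Of 23 p53 targets and cell cycle inhibitors, 4 were called (17.4%, against 3.27% of all genes), 1 higher and 3 lower in H3.3K27M. Cdkn1b, the inhibitor p27, was at 94.5 to 172 CPM in H3.3K27M, 82.7 to 111 CPM in WT-H3.3 and 44.1 to 71.0 CPM in H3.3K27L libraries, with no overlap between the mutants (log2 fold change 1.07, SE 0.14, adjusted p = 0.000386), and lies in the chromosome 6 stretch. Ccnd2, cyclin D2, lies there too and was lower in H3.3K27M, at 0.278 to 2.67 against 4.33 to 6.76 CPM (log2 fold change -1.81, SE 0.32). Perp, a p53-induced membrane protein, differed by -1.07. Among 20 immediate early genes 2 were called (10%). Dusp5, a phosphatase of ERK, was higher (5.44 to 9.44 against 2.68 to 5.41 CPM, log2 fold change 1.03) and Myc was lower (3.70 to 33.3 against 28.4 to 97.5 CPM, log2 fold change -1.54, SE 0.43, adjusted p = 0.0352). None of 30 DNA replication, 25 mitosis and 19 cholesterol synthesis genes was called, with medians of 0.02, 0.05 and 0.13. Mcm10, a replication factor, was at 183 to 246 against 274 to 305 CPM, without overlap but at a log2 fold change of -0.42. The mitosis gene of lowest adjusted p was Ccnb2, a mitotic cyclin (log2 fold change 0.21, adjusted p = 0.0826).

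Calls were also read along the chromosomes, a view chosen after the values were seen. Chromosome 6 held 36 genes higher in H3.3K27M and 4 lower among 623 tested (5.78% and 0.642%, against 2.31% and 0.964%). From Bms1 to Cmas (118333401 to 142724234) 118 of 138 tested genes were higher in H3.3K27M, with a median of 0.49 on the log2 scale and 15 called higher and 1 lower. This stretch joins a run from Bms1 to Rimklb (26 genes, median 0.51) and one from Cops7a to Cmas (80 genes, median 0.61). Genes between them were in neither run. In the run from Cops7a to Cmas, the median of 43 genes with a mean above 4 on the log2 CPM scale was taken against WT-H3.3. It lay at -0.68 to -0.51 in all 7 H3.3K27L libraries and at -0.07 to 0.11 in the 8 H3.3K27M libraries. Hebp1, a heme-binding protein, lies there and was at 28.6 to 49.7 against 11.1 to 24.5 CPM (log2 fold change 1.33, SE 0.12, adjusted p = 2.32e-05). Without the stretch, 381 genes were called, 268 of them higher in H3.3K27M. On chromosome 17, from Mrpl14 to Usp49 (45823271 to 47823687), the median of 31 genes was at 0.66 to 0.77 in the H3.3K27L replicate 2 libraries and at -0.09 to -0.02 in replicate 1. How far the level of a stretch accounts for the values of its genes was not tested. Stretches made up largely of zinc finger genes were lower in H3.3K27M, on chromosomes 2 (Atp5e to Etohi1, median -0.64 over 21 genes), 4 (-0.43 over 25), 13 (-0.38 over 16) and 17 (Zfp52 to Zfp13, -0.42 over 19, of which 0 were higher in H3.3K27M). Genes of such clusters share sequence, so reads may be split between them. Over the 3 to 10 genes of each above the same level, the library medians of the mutants overlapped at each cluster.

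**Figure D5:**
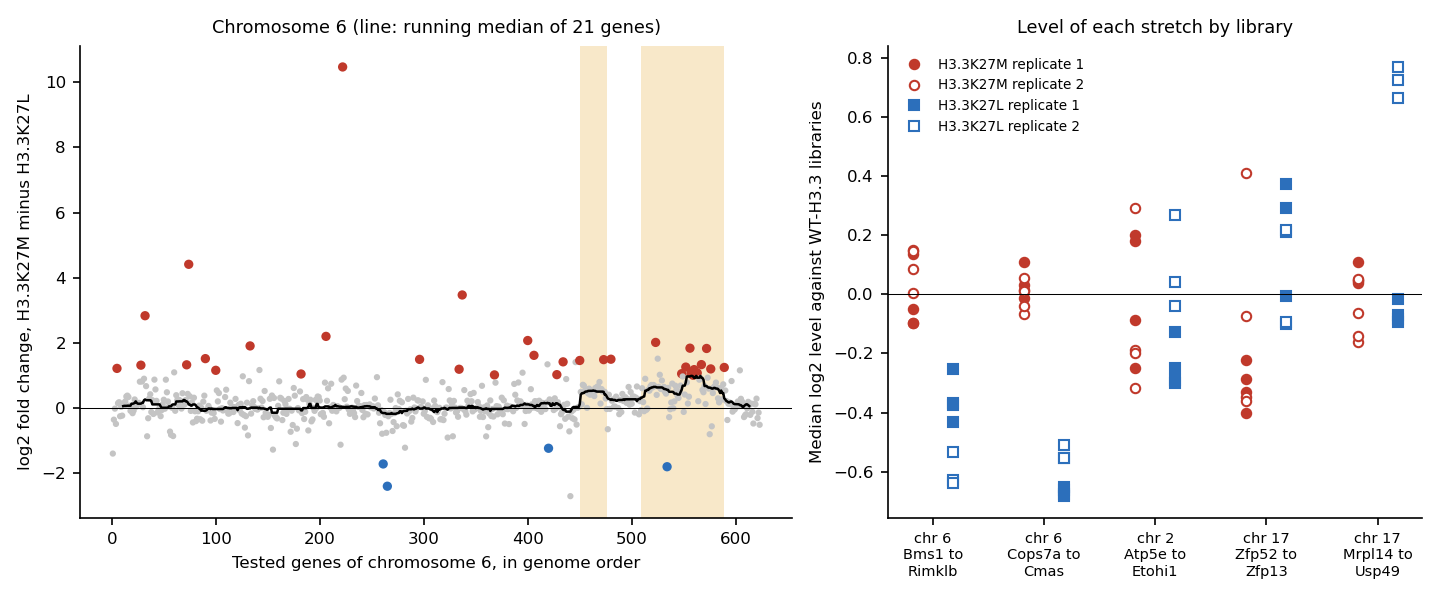
Left, log2 fold change of H3.3K27M minus H3.3K27L for the tested genes of chromosome 6 in genome order, with the running median over 21 genes and shaded bands at its raised parts. Right, the median log2 level of the genes of 5 stretches against WT-H3.3 in each library, where all H3.3K27L libraries lie below 0 at both chromosome 6 stretches and only those of replicate 2 lie above 0.6 at the chromosome 17 stretch from Mrpl14 to Usp49.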

How the data were processed

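RNA libraries of KH2 ESCs were sequenced single-end, with 1 of 2 kits (KAPA or a 3′ kit) whose use per library is not given in the sources used here. The authors aligned reads with STAR 2.7.1 (build mm9) and deposited unnormalised counts for each gene. The counting tool and strand setting are not given in the sources used here. Of 55471 genes, 32589 had a chromosome in the mm9 annotation (98.1% of counts), 2760 on chromosomes 8, 14 and Y were set aside, and 12338 passed edgeR's filterByExpr.

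Counts were TMM-normalised and tested in R 4.3.3 with edgeR 4.0.16 (quasi-likelihood, Benjamini-Hochberg adjustment), with Dox time as a factor (10 residual degrees of freedom). Single times and interactions used line by time means (7 residual degrees of freedom). Calls needed an adjusted p under 0.05 with a change of more than 2-fold. Levels are CPM on a scale of 23 libraries. Genes were named by rule, as up to 12 called genes of lowest adjusted p per direction with non-overlapping libraries, up to 4 per gene list and those the study discusses. Some genes that the rule names are not reported here. Members and lists were chosen with earlier results of these data known. Scripts were tested on simulated counts. DESeq2 1.42.0 was an alternative.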

Additional observations from a re-analysis of the deposited data

Results flagged for a closer look

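Among 212 groups of libraries tested for a single value far from the others, 16 were picked out, and chance picks about 1 in 20. The H3.3K27L library of 72 h, replicate 1, stood above the other 6 of its line at 8 genes. It was at 81.1 CPM for Ddit4 (next 40.8), 67.8 for Vegfa (next 25.3), 577 for Psat1 (next 338), 56.5 for Suclg2 (next 37.8), 62.4 for Wfdc2 (next 31.0), 1.91 for Xlr3a (next 0.543), 1.56 for Rhox1 (next 0.543) and 0.347 for Hoxd1 (next 0.147 CPM). It is the only library of its line and time that was used.

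Other H3.3K27L libraries were high at Meis1 (2.79 CPM at 8 h, replicate 1), Celsr3 (24.0 CPM at 24 h, replicate 1) and Magea4 (0.109 CPM at 8 h, replicate 1, with the others at 0). In H3.3K27M the replicate 2 library of 72 h was high at Cdkn1c (3.34 CPM, next 1.67) and Perp (7.73 CPM, next 5.09), and its median over the chromosome 17 stretch from Zfp52 to Zfp13 was 0.411 on the log2 scale against -0.40 to -0.07 in the other libraries. Dab2 was at 8.34 CPM in replicate 1 of 24 h (next 2.85) and Tet2 at 344 CPM in replicate 2 of 4 h (next 217).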

How the results depend on the processing

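Over all times, the 404 calls moved by over 1.5 times with at least 10 counts in every library (134), line by time means averaged (214), libraries summed per line and replicate (0), no fold threshold (1148, of which 55.1% higher in H3.3K27M against 70.5%), a fold of 4 (75) and an adjusted p under 0.01 (187). Leaving out 1 library gave 291 to 428, DESeq2 454, no filter 581, all ESC libraries 436, chromosomes 8, 14 and Y kept 485 and a length slope 523. That slope, of log2 level on log2 exon length in each library, was used as a covariate. At 4 to 24 h it was 0.47 to 0.55 in replicate 1 and 0.67 to 0.69 in replicate 2 of H3.3K27M. In H3.3K27L the ranges were 0.70 to 0.71 and 0.53 to 0.56. A link to the kit used was not tested. With H3.3K27L replicate 1 or 2 only, chosen after seeing the data, 539 and 444 genes were called, 290 and 180 of them shared with the 404. At 4, 8, 24 and 72 h the calls were 0, 3, 0 and 0. No filter gave 128, 179, 124 and 19 there, 3 late minus early and 6 for the interaction. DESeq2 gave 42, 58, 35 and 3, and all ESC libraries 44, 48 and 38 at the first 3 times. Leaving out 1 library gave 0 to 0 at 8 h.

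Replicate numbers did not pair the lines (correlations of -0.245, -0.254 and -0.228 at 4, 8 and 24 h). A replicate block gave 440 calls over all times, 1 at 4 h and 14 at 8 h, and crossed replicate numbers 499, 23, 37, 18 and 1 over all times and at 4, 8, 24 and 72 h.

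The named genes called over all times kept their direction in every setting. Values that changed sign, with the cause not tested, were those of genes not called. With all 15 libraries close to 0 were H3f3b (0.0300 with the shallow H3.3K27L library, 0.00992 with replicate 1 only, -0.0970 to 0.0133 without 1 library), Nanog (-0.0145 with a length slope, -0.0664 with replicate 1 only, -0.0315 to 0.102 without 1 library), and H3f3a (-0.144 to 3.02e-05 without 1 library). With replicate 2 only, Egln3 went from 0.32 to -0.0508 and Tet2 from -0.97 to 0.0764. Among the genes called in under 80% of settings were Cdkn1c, Nespas, Vegfa, Hoxc5, Cdx2, Myc, Suclg2 and Fabp1.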

Other observations

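Fabp1, a fatty acid-binding protein of liver and gut, was named after its values were seen. It was at 22.7 to 58.4 CPM in the 4 replicate 1 libraries of H3.3K27M and at 0 in the 4 of replicate 2, in all 7 H3.3K27L libraries and in the WT-H3.3 libraries but for one at 0.106 CPM. Against the floor of 3 counts over the H3.3K27L group, the H3.3K27M mean was at least 425-fold higher, which rests on replicate 1 alone.

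Medians of some lists against WT-H3.3 were not given above. The 2-cell-like genes had a median log2 difference of -1.0005 in H3.3K27M and -1.90 in H3.3K27L, the Hox genes -0.25 and -0.98, and the germline genes -0.01 and -0.73. The hypoxia genes lay at 0.33 and 0.06. These values share the WT-H3.3 libraries and are given side by side.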
